A study of Mus musculus with 3 samples.

Results

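The 35 genes described here encode enzymes of glycolysis, carriers and enzymes that handle lactate and pyruvate, and proteins of the hypoxia response. They were chosen by symbol for their known roles, with earlier results of these data known, and all 35 were found among the 31053 genes of the count tables. The list holds 15 glycolytic enzymes, 7 genes of lactate, pyruvate and transport, and 13 genes of the hypoxia response. Mouse (C57BL/6) organoids had been grown from Lgr5+ cochlear progenitor cells, the supporting cells that can divide in culture. The expansion group was collected at passage 2, day 8, in DMEM/F-12 with GlutaMAX, N2, B27, IGF, EGF, bFGF, LPA, Y-27632 and CHIR99021. The day 5 group came from organoids moved to differentiation medium (LY4115775, A83-01, RA, Shh, BDNF and bFGF) and the day 25 group from organoids that had LY4115775 for the initial 5 days only. All cells were dissociated with trypsin, sorted as single living cells and sequenced with the 10x Genomics 3′ v3 chemistry. Each group was 1 library, and the labels do not say how many animals or cultures it pooled. No difference between groups therefore has a replicate check, and no test was run between them.

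Glycolysis splits glucose into pyruvate in the cytosol, with hexokinase and phosphofructokinase as regulated entry steps and phosphoglycerate kinase and pyruvate kinase as the steps that yield ATP. Lactate dehydrogenase turns pyruvate into lactate, which monocarboxylate transporters carry out of the cell. When oxygen is low, or when growth signals act on it, the transcription factor HIF binds a short element near many of these genes and raises their transcription. Most cells that divide fast use much glycolysis, whereas sensory hair cells rely heavily on mitochondrial respiration.

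The core of the hypoxia response element is ACGTG or GCGTG, and it was searched on both strands of RefSeq promoters (GRCm38.p6, 250 bases before to 50 bases after each start). Of the 35 genes 32 were matched to a promoter, and Bnip3l, Ndrg1 and Slc2a3 were not. At least 1 match was found in 28 of 32 genes (87.5%), against 46.7% of all genes in that reference. By promoter, 35 of 45 (77.8%) held a match against 43.8% of all promoters, and 12 of 45 (26.7%) held at least 3 matches against 8.93%. Both motifs contain CG, and the promoters were not matched on base composition. A match describes letters in the window and is no evidence of binding. The 250 bases before the start are printed for 3 genes that were higher in expansion cells with a Car9 UMI (Pgk1, Bnip3 and Pfkp, described further on) and for 2 genes with no match in the window, Gpi1 and Car12. Capitals mark the matches, and CACGTG holds 1 on each strand and was counted as 2.
Pgk1: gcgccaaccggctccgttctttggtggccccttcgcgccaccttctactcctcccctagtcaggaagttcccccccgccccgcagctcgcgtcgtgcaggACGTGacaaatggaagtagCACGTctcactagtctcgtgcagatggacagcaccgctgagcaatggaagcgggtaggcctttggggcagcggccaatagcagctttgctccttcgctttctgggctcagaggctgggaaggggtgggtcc
Bnip3: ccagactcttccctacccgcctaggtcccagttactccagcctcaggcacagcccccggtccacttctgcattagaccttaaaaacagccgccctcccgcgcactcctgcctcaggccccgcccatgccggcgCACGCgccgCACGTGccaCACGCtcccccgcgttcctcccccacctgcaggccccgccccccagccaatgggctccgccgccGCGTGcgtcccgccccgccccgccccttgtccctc
Pfkp: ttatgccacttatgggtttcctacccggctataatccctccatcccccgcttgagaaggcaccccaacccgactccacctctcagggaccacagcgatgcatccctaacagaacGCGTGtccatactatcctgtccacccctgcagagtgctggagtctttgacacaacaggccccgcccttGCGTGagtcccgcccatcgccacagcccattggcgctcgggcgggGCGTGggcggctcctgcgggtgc
Gpi1: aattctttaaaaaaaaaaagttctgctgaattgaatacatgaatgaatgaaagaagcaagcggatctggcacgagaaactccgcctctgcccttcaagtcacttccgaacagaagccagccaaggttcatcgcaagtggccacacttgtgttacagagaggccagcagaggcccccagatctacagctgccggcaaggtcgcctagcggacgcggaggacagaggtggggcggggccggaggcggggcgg
Car12: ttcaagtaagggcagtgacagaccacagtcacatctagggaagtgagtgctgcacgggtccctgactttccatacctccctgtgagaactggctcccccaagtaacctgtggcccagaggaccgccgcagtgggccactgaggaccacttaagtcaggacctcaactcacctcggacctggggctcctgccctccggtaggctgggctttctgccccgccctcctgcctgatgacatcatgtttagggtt
In GRCm38.p6 these lie at chrX:106186850-106187099 (plus strand) for Pgk1, chr7:138909507-138909756 (minus strand) for Bnip3 and chr13:6648772-6649021 (minus strand) for Pfkp. The windows without a match lie at chr7:34230337-34230586 (minus strand) for Gpi1 and chr9:66713436-66713685 (plus strand) for Car12. The Pgk1, Bnip3 and Pfkp windows held 2, 5 and 3 matches.

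After filtering, 27996 cells were kept from expansion, 13850 from day 5 and 6264 from day 25, with 206041930, 139807302 and 75301271 unique molecular identifiers (UMIs, each standing for 1 captured RNA molecule). Levels are depth-scaled counts (CPM) of the UMIs summed over the cells named, with exact Poisson 95% intervals that cover counting error only. In a sum over all cells, fewer cells of a type and less RNA per cell cannot be told apart. Levels were therefore also taken in 3 classes. Epcam-positive (epithelial) cells held at least 2 UMIs of Epcam, under 2 of Pou4f3 and no high Otor, and numbered 16688, 6804 and 3748 in expansion, day 5 and day 25. Pou4f3-positive cells held at least 2 UMIs of that hair cell transcription factor and numbered 169, 350 and 1616. Otor-high cells, with at least 5 Otor UMIs, numbered 2374, 4302 and 341. Cells of no class (8566, 1892 and 521) were shallow, with medians of 3347, 1645 and 4193 UMIs against 7027, 6620 and 8979 in Epcam-positive cells.

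The classes were checked against markers that did not define them. Among epithelial markers, Cldn7 stood at 283, 292 and 691 CPM in Epcam-positive cells and at 109.8 CPM or less in the other classes. Cdh1 was instead higher in Pou4f3-positive than in Epcam-positive cells of expansion (115 against 47.7 CPM) and day 5 (164 against 44.6 CPM). Otof, a hair cell synapse gene, stood at 89.6, 471 and 287 CPM in Pou4f3-positive cells and at 5.05 CPM or less in the other classes. Pou3f4, a transcription factor of periotic mesenchyme, stood at 149, 291 and 240.2 CPM in Otor-high cells and at 12.5 CPM or less elsewhere. Col3a1 was also highest in Otor-high cells in every library (31.0, 253 and 117 CPM), as were Postn and Apod on days 5 and 25. The mesenchyme genes Dcn and Lum were instead higher in Epcam-positive than in Otor-high cells (1234 against 43.5 CPM for Dcn on day 5). Pdgfra was higher in Pou4f3-positive cells (11.9, 43.8 and 91.4 CPM) than in Otor-high cells (6.75, 24.9 and 74.2 CPM). Col1a2 on day 5 stood at 7.79 CPM in Epcam-positive and 6.80 CPM in Otor-high cells, and Col1a1 at 2.79 CPM or less throughout. The mesenchyme list thus did not follow Pou3f4 as a whole. Of the 5 endothelial markers, Emcn stood at 593 to 765 CPM and Kdr at 15.6, 27.3 and 3.37 CPM in Otor-high cells, both above Epcam-positive cells, while Pecam1, Cdh5 and Cldn5 stood at 1.12 CPM or less. Otor-high cells are therefore called by their rule alone. Macrophage, erythroid and melanocyte lists summed to 2.02 CPM or less over all kept cells of every library. The glia list summed to 122, 189.6 and 118 CPM in expansion, day 5 and day 25, mostly from Sox10 at 109, 167 and 100.1 CPM. Sox10 stood at 129, 229.6 and 146 CPM in Epcam-positive cells. Kept cells shared 121, 51 and 21 barcodes between pairs of libraries, at most 0.87% of the smaller one.

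The glycolytic enzymes were lower in both differentiation libraries than in expansion. The 15 enzymes together made up 0.748% of the UMIs of the expansion library, 0.250% of day 5 and 0.261% of day 25. A gene was called when its ratio of CPM + 1 between libraries reached 2-fold and it had at least 20 CPM in either. From expansion to day 5, 10 of the 12 enzymes with at least 20 CPM were called lower and 0 higher. Over all 35 members, 24 passed that level, 12 were called lower and 2 higher, whereas 7.81% of 6416 tested genes were called lower and 15.3% higher. The median log2 ratio was -1.0 over the 24 tested members, -0.76 over all 35 and 0.19 over all tested genes. From day 5 to day 25 the count was 5 higher and 0 lower of 24 (21.1% and 5.82% of all genes), and from expansion to day 25 it was 5 higher and 12 lower of 25 (33.5% and 9.12%). Scaling moved these splits. With TMM scaling, which assumes that most genes do not differ, the members stood at 2 higher and 15 lower, 3 higher and 4 lower, and 4 higher and 16 lower for these pairs. Over all genes TMM turned 979 higher and 501 lower on day 5 against expansion into 596 and 902, 1514 and 418 on day 25 against day 5 into 942 and 860, and 2437 and 664 on day 25 against expansion into 1191 and 1684. The all-gene median moved from 0.19, 0.31 and 0.51 to -0.19, -0.03 and -0.23.

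**Figure D1:**
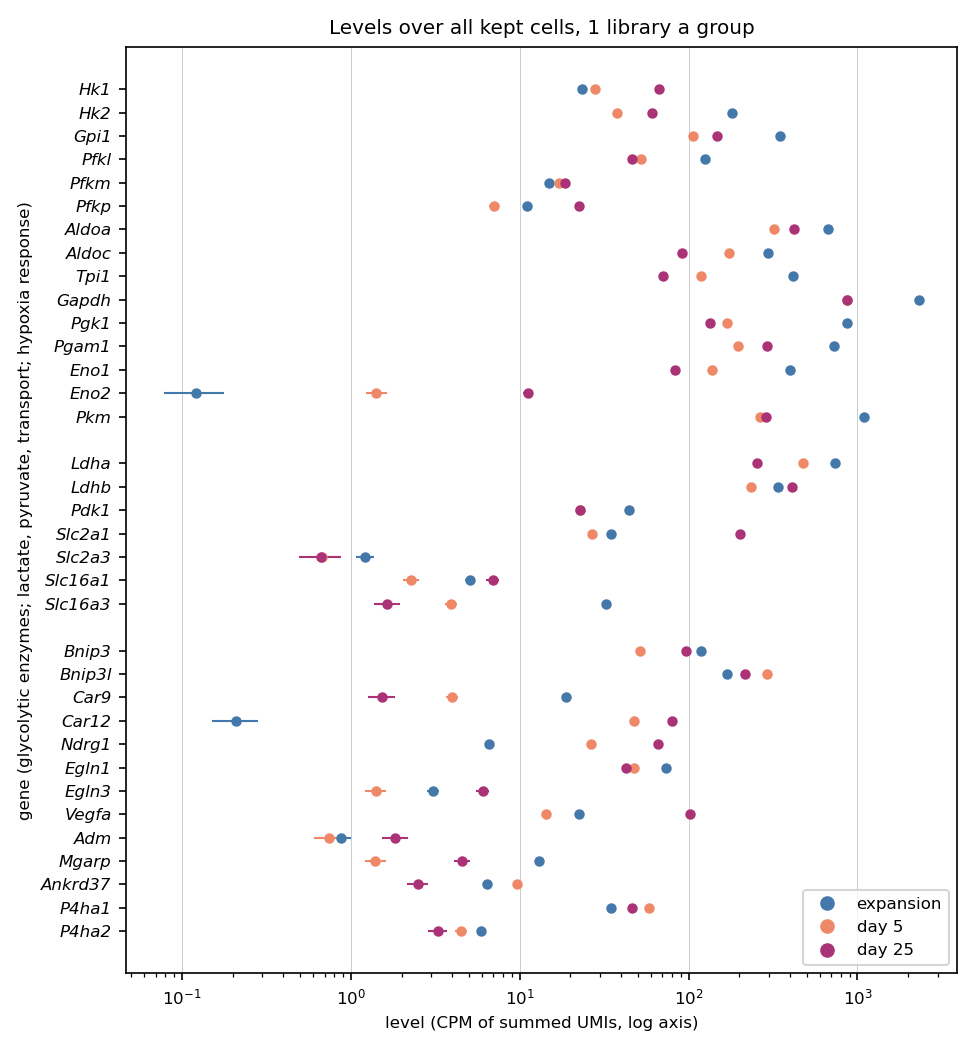
Level of each of the 35 genes (rows, grouped by role) over all kept cells of the expansion (blue), day 5 (orange) and day 25 (purple) libraries, in CPM on a log axis; bars are exact Poisson 95% intervals and are mostly narrower than the points. Most glycolytic enzymes sit to the right in expansion (Pgk1 at 867 CPM against 169.6 and 134), while Slc2a1, Vegfa, Ndrg1 and Car12 sit furthest to the right on day 25.

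Hexokinase traps glucose in the cell, and its forms went in different directions. Hk2 stood at 182 CPM in expansion, 37.5 on day 5 and 60.4 on day 25, a level 4.85-fold lower on day 5 (95% interval 4.71 to 4.99). Hk1 stood at 23.4, 28.0 and 66.7 CPM and was 2.38-fold higher on day 25 than on day 5 (2.29 to 2.49), a call lost with TMM scaling. Gpi1, the isomerase after hexokinase, stood at 349, 107 and 148 CPM. Among the phosphofructokinases, which set the rate of glycolysis, Pfkl stood at 125, 52.4 and 46.1 CPM and Pfkp at 11.0, 7.04 and 22.5 CPM. Pfkm, the muscle form, stood at 18.6 CPM or less over all cells. It passed 20 CPM in Pou4f3-positive cells on day 5 (20.6 CPM) and day 25 (28.3 CPM) and in Otor-high cells on day 25 (20.2 CPM). So over all kept cells Hk2, Gpi1 and Pfkl were highest in expansion, and Hk1 and Pfkp were highest on day 25. Within classes Pfkp stood at 10.7, 3.56 and 10.1 CPM in Epcam-positive and 51.6, 29.2 and 53.0 CPM in Pou4f3-positive cells. Its level on day 25 was thus near that of expansion in both, and it was clearly higher only in Otor-high cells (7.74, 12.3 and 26.6 CPM). Hk2 was highest on day 25 in Otor-high cells (61.7, 49.1 and 99.3 CPM).

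The middle of the pathway followed the expansion library. Aldoa, the aldolase found in most tissues, stood at 674, 319 and 420.1 CPM. A second Ensembl gene carries that symbol and held only 2, 9 and 1 UMIs. Aldoc, the aldolase best known from brain, stood at 297, 174 and 91.7 CPM and was called lower on day 25 but not on day 5. Tpi1, triosephosphate isomerase, stood at 413, 119 and 70.3 CPM and was 5.88-fold lower on day 25 than in expansion (5.72 to 6.04). Gapdh, the dehydrogenase often used as a reference gene, stood at 2315, 872 and 866 CPM, so it was 2.65-fold lower on day 5 (2.64 to 2.67) and level from day 5 to day 25.

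The enzymes of the ATP-yielding end were lower after expansion, apart from Eno2. Pgk1 (phosphoglycerate kinase, ENSMUSG00000062070, chrX:106187100-106203699, GRCm38) stood at 867 CPM in expansion, 169.6 on day 5 and 134 on day 25. It was 5.11-fold lower on day 5 (5.05 to 5.18) and 6.48-fold lower on day 25 (6.35 to 6.61). Pkm, pyruvate kinase, stood at 1087, 264 and 286 CPM, 4.11-fold lower on day 5 (4.06 to 4.16). Pgam1, phosphoglycerate mutase, stood at 725, 195 and 289.6 CPM, and the enolase Eno1 at 397, 138 and 83.0 CPM. Eno2, the neuronal enolase, went the other way, from 0.121 to 1.42 and 11.2 CPM, and stayed under the 20 CPM bound in all cells. Gapdh, Pgk1, Ldha, Eno1 and Tpi1 have many near-identical copies in the mouse genome. How the authors counted reads shared with them is not given in the sources used here, so their absolute levels are uncertain. The listed copy Eno1b stood at 5.52, 1.09 and 1.35 CPM.

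Genes around pyruvate and lactate were mixed. Ldha, the lactate dehydrogenase subunit that favours lactate, stood at 734, 479 and 256 CPM. Ldhb, the subunit that favours pyruvate, stood at 340.2, 233 and 409 CPM, and its direction from expansion to day 25 reversed with TMM scaling (log2 0.26 and -0.37). Pdk1, a kinase that keeps pyruvate out of the citrate cycle, stood at 44.6, 22.9 and 22.8 CPM. Slc16a3 (the lactate exporter MCT4) had the largest ratio among the members called lower, going from 32.4 to 3.93 and 1.65 CPM, which is 8.25-fold on day 5 (7.56 to 9.02) and 19.7-fold on day 25 (16.5 to 23.7). Slc2a1, the glucose transporter GLUT1, was also lower on day 5 than in expansion but was highest on day 25. It stood at 34.6, 26.8 and 202 CPM, 7.55-fold higher on day 25 than on day 5 (7.29 to 7.83). Slc16a1 and Slc2a3 ranged from 0.664 to 6.92 CPM.

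The hypoxia genes did not move as 1 block. Of the 7 tested on day 5 against expansion, 1 was called lower (Bnip3) and 2 higher (Car12 and Ndrg1), against 7.81% and 15.3% of all genes. With so few genes these counts are not set apart from those shares. Bnip3, a mitophagy receptor, stood at 118, 51.9 and 96.0 CPM. Car9 and Car12 are both cell surface carbonic anhydrases, and they traded places. Car9 (ENSMUSG00000028463, chr4:43506966-43513729) went from 18.8 to 3.98 and 1.53 CPM, while Car12 (ENSMUSG00000032373, chr9:66713686-66766845) went from 0.209 to 47.8 and 79.7 CPM. Car12 rested on 43 UMIs in expansion and was 229-fold higher on day 5 (169.7 to 317). Ndrg1, a stress-induced gene of differentiating cells, stood at 6.55, 26.6 and 66.1 CPM. Of the 3 classes only Otor-high cells had more of it on day 5 than in expansion (92.9 against 3.28 CPM). It was lower on day 5 in Epcam-positive (4.80 against 7.16 CPM) and Pou4f3-positive cells (2.26 against 4.15 CPM). Vegfa, the vascular growth factor, stood at 22.6, 14.4 and 102 CPM, 7.09-fold higher on day 25 than on day 5 (6.75 to 7.44). The other members were Bnip3l at 169.7 to 293 CPM, the oxygen sensor Egln1 at 42.5 to 73.5 CPM and the collagen hydroxylase P4ha1 at up to 58.5 CPM, with no call among them over all cells. Egln3, Adm, Mgarp, Ankrd37 and P4ha2 stayed between 0.744 and 13.0 CPM.

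Other features of the libraries moved with these differences. All 8 cell cycle markers were called lower on day 5 and on day 25 than in expansion, and their summed level was 1149, 38.6 and 31.7 CPM. A UMI of Mki67 or Top2a was held by 63.32% of Epcam-positive cells in expansion and by 2.79% and 1.89% on days 5 and 25. With such cells left out of every library, 13 members were lower and 2 higher on day 5 against expansion, and the log2 ratio of Pgk1 was -2.38 against -2.35 with them. No share over all genes is given for that setting. The expansion cells left were shallower, with a median of 3718 against 4935 UMIs. A cell without such a UMI may therefore still have been dividing. Markers of dissociation stress (Fos, Jun and the like) summed to 637, 4303 and 7048 CPM, and 5 of 5 tested were called higher on day 5 and 7 of 7 on day 25. Ribosomal protein genes took 33.8%, 23.0% and 15.4% of UMIs. The part of cell division, stress, medium and ribosomal share in the results was not tested.

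Within Epcam-positive cells the glycolytic enzymes were lower after expansion as well, with a median log2 ratio over the 15 of -1.36 on day 5 against -1.41 over all cells. The share of the 15 enzymes was 0.794% in this class at expansion, then 0.276% and 0.280%. On day 5 against expansion 16 of 24 tested members were called lower and 1 higher, against 10.6% and 14.4% of all genes. On day 25 against expansion the count was 14 lower and 5 higher of 25 (10.7% and 28.3% of all genes), and on day 25 against day 5 it was 0 lower and 5 higher of 23 (5.44% and 18.6%). Pgk1 stood at 961, 202 and 175 CPM, and Hk2 at 209, 35.9 and 78.1 CPM. The additional members called lower on day 5 in this class were Ldha (743, 277 and 275 CPM), Pdk1 (46.9, 22.3 and 20.7 CPM), Car9 (22.1, 5.49 and 1.94 CPM) and Vegfa (22.3, 10.6 and 117 CPM). Car12 was the only member called higher on day 5, from 0.191 to 63.1 CPM. On day 25 Slc2a1 (38.0, 31.6 and 264 CPM), Vegfa and Ndrg1 (7.16, 4.80 and 84.7 CPM) were the called members with the largest ratios to day 5, at 8.36-fold, 11.1-fold and 17.6-fold.

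In Pou4f3-positive cells the glycolytic enzymes took 0.601%, 0.196% and 0.226% of UMIs, and the median log2 ratio of the 15 on day 5 against expansion was -1.63. On day 5 against expansion 15 of 26 tested members were called lower and 2 higher (9.02% and 15.5% of all genes). On day 25 against expansion the count was 12 lower and 5 higher of 26 (11.7% and 28.9%), and on day 25 against day 5 it was 2 lower and 7 higher of 25 (8.29% and 18.5%). Pgk1 went from 524 to 58.0 and 39.4 CPM, 13.3-fold lower on day 25 (12.1 to 14.7). Hk2 went from 105 to 7.61 and 8.56 CPM, 13.8-fold lower on day 5 (9.64 to 20.2). Aldoc went from 157 to 49.4 and 11.0 CPM and Ldha from 543 to 158 and 102 CPM. Ldhb stood at 403, 797 and 595 CPM instead, 1.98-fold higher on day 5 (1.82 to 2.15) and just under the 2-fold bound. Eno2 rested on 1 UMI in expansion and reached 6.17 and 27.3 CPM, 4.43-fold higher on day 25 than on day 5 (3.06 to 6.62). Car12 rested on 3 UMIs in expansion and reached 54.3 and 129 CPM. The 169 expansion cells of this class make its intervals the widest of the 3 classes at that stage, and its cells had medians of 8.47%, 5.22% and 8.44% mitochondrial UMIs against 5.9%, 4.37% and 4.68% in Epcam-positive cells.

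In Otor-high cells the core enzymes were lower after expansion, at 0.493%, 0.183% and 0.229% of UMIs. Members called higher against expansion were no more frequent than such calls over all genes. On day 5 against expansion 8 of 21 tested members were called lower and 3 higher (4.61% and 21.0% of all genes), and 7 of the 8 were glycolytic enzymes. On day 25 against day 5 the count was 0 lower and 5 higher of 23 (5.06% and 17.2%), and on day 25 against expansion 6 lower and 7 higher of 24 (7.12% and 39.1%). The all-gene median was 0.41 on day 5 and 0.69 on day 25 against expansion. It was 0.1 and 0.38 in Epcam-positive and 0.17 and 0.41 in Pou4f3-positive cells. With TMM 13 members were lower on day 5 and 12 on day 25 in Otor-high cells. No share over all genes is given for this class with TMM, so the rise in lower calls is not read as a result. Pgk1 stood at 428, 94.7 and 135 CPM, and Gapdh at 1607, 506 and 596 CPM. Ldha, in contrast, stood at 704, 1097 and 798 CPM and was 1.56-fold higher on day 5 (1.52 to 1.60). Ldha did not reach the 2-fold call, and the 3 members called higher on day 5 were Ndrg1 (3.28, 92.9 and 106 CPM), Bnip3l (114, 315 and 230.1 CPM) and P4ha1 (30.3, 92.6 and 126 CPM). Hk1, at 16.9, 30.5 and 56.2 CPM, was 1.81-fold higher on day 5 and also not called. Vegfa stood at 27.0, 24.5 and 289.7 CPM, above the other classes on day 25. Car9 had 21 and 9 UMIs in expansion and day 5 and 0 on day 25, where 3 UMIs would be 1.12 CPM.

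**Figure D2:**
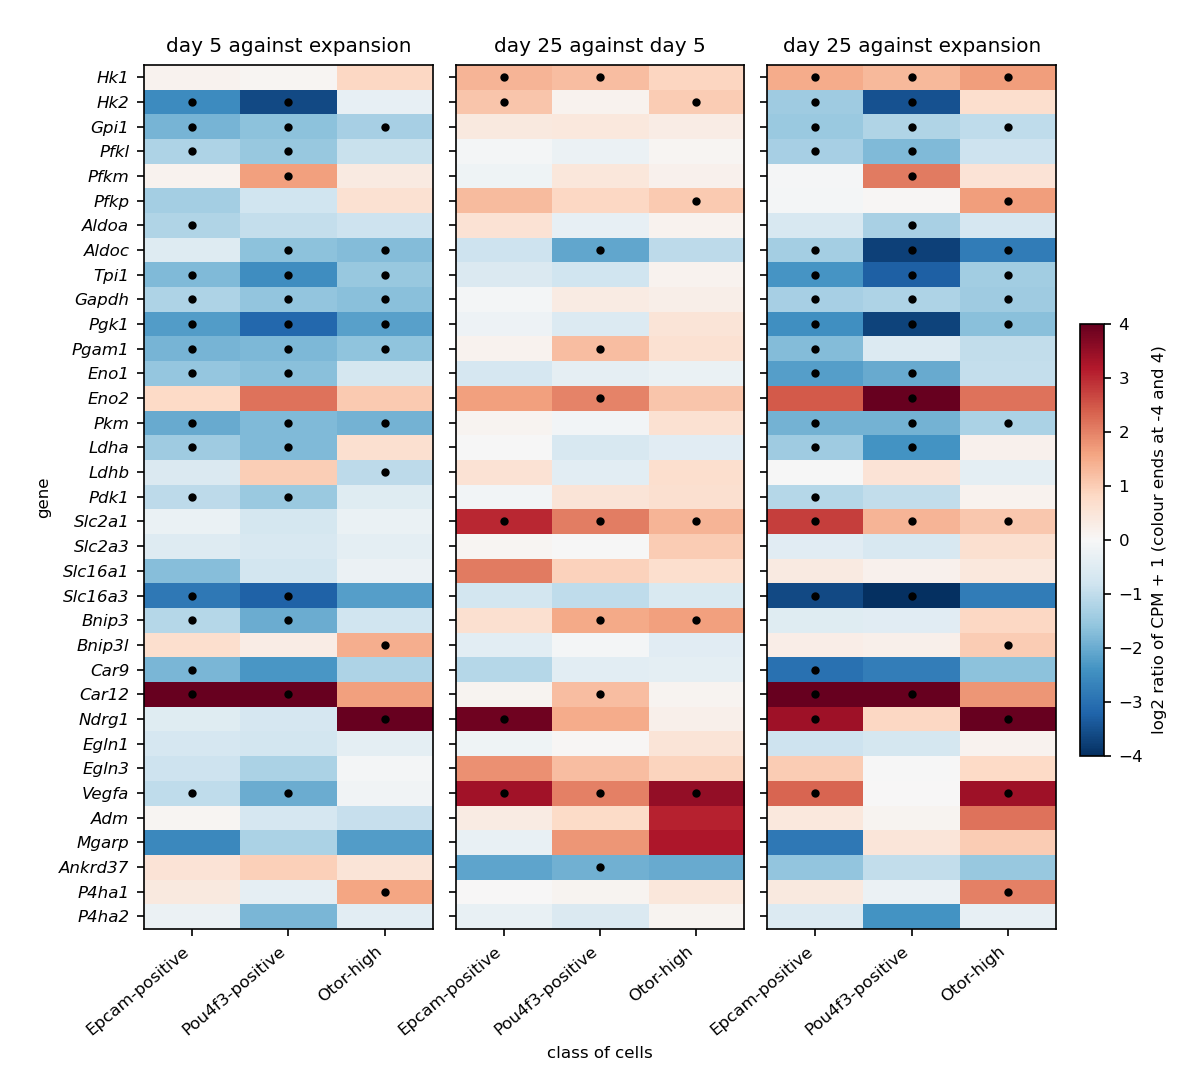
Log2 ratio of CPM + 1 for each gene (rows) between pairs of libraries (panels) in Epcam-positive, Pou4f3-positive and Otor-high cells (columns); red is higher in the later library, blue lower, the colour scale ends at -4 and 4, and black dots mark calls. Glycolytic enzymes are mostly blue against expansion in all 3 classes, Ldha is blue in Epcam-positive and Pou4f3-positive cells and pale red in Otor-high cells on day 5, and Vegfa and Slc2a1 are red on day 25 against day 5.

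Classes within a library share medium, dissociation and sequencing run. Against Epcam-positive cells, Pou4f3-positive cells of expansion had 1 member called higher (Pfkp) and 1 lower (Aldoc) of 24, against 9.96% and 3.93% of all genes. These 2 calls became 7 without cells holding Mki67 or Top2a, 4 with TMM scaling, without ribosomal and mitochondrial genes or from 1 CPM, and 1 with a marker threshold of 1 UMI or a stricter cell filter. Otor-high cells had 0 higher and 5 lower of 23 (4.37% and 12.6%): Hk2, Aldoc, Pgk1, Eno1 and Car9, which became 8 without cells holding Mki67 or Top2a or from 1 CPM. Pfkp, the platelet form of phosphofructokinase, stood at 51.6 CPM in Pou4f3-positive cells and 10.7 CPM in Epcam-positive cells of expansion, a ratio of 4.83 (3.85 to 5.99). It kept that order on day 5 (29.2 and 3.56 CPM) and day 25 (53.0 and 10.1 CPM).

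On day 5 Pou4f3-positive cells had 3 of 24 tested members higher and 5 lower than Epcam-positive cells, against 18.9% and 14.5% of all genes. With a marker threshold of 1 UMI, which widens that class from 350 to 732 cells, 1 of these 8 calls was left. Otor-high cells had 3 of 23 higher and 5 lower (10.7% and 11.6%). Ldha was 3.96-fold higher in Otor-high than in Epcam-positive cells (3.90 to 4.03), and Ldhb was 3.34-fold higher in Pou4f3-positive than in Epcam-positive cells (3.22 to 3.45). Ndrg1 stood at 92.9 CPM in Otor-high and 4.80 CPM in Epcam-positive cells, a ratio of 19.4 (17.5 to 21.4). Car12 was the mirror image, at 3.04 CPM in Otor-high and 63.1 CPM in Epcam-positive cells. After thinning each cell to 2000 UMIs, 11.5% of Epcam-positive cells of day 5 and 0.626% of Otor-high cells held a Car12 UMI (35.7% and 1.95% unthinned), and 0.997% and 15.8% held an Ndrg1 UMI (5.53% and 37.0%). Free RNA can give UMIs in cells that do not express a gene, and its part in the low values was not tested.

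On day 25 Pou4f3-positive cells had 2 members higher (Pfkp and Eno2) and 8 lower than Epcam-positive cells, against 19.6% and 17.3% of all genes. The lower members included Ndrg1 (8.11 against 84.7 CPM), Vegfa (28.0 against 117 CPM) and Slc2a1 (87.4 against 264 CPM), all 3 called higher on day 25 than on day 5 over all cells with CPM scaling. Otor-high cells had 4 higher (Pfkp, Ldha, Vegfa and P4ha1) and 4 lower (Aldoc, Ldhb, Slc2a1 and Car12), against 12.4% and 12.8% of all genes. Aldoc ordered the classes in the same way at each stage, at 342, 238 and 133 CPM in Epcam-positive, 157, 49.4 and 11.0 CPM in Pou4f3-positive and 57.6, 16.4 and 7.50 CPM in Otor-high cells. On day 25 the last 2 differed by less than their intervals, 9.58 to 12.6 and 4.58 to 11.6 CPM.

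**Figure D3:**
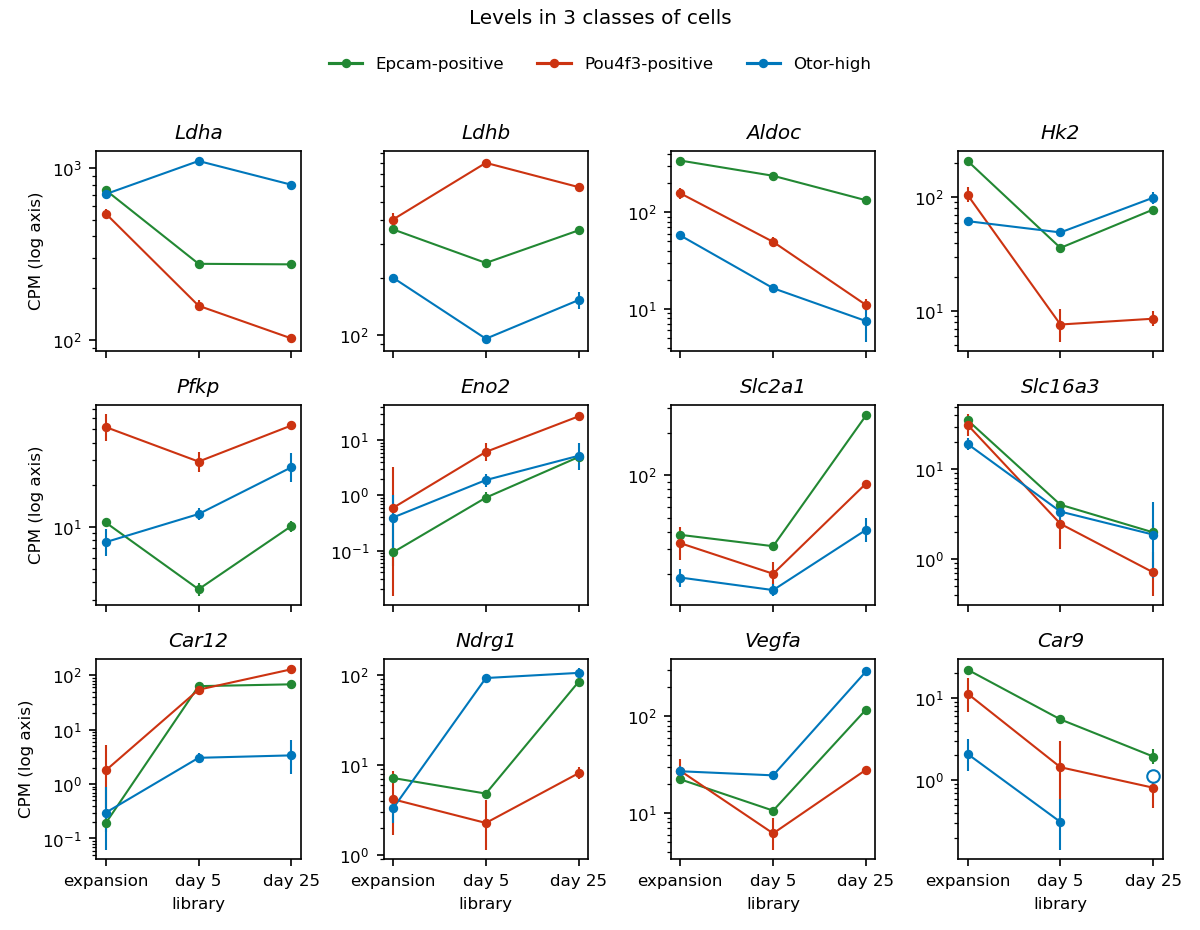
Levels of 12 genes (panels) in Epcam-positive (green), Pou4f3-positive (red) and Otor-high (blue) cells of the 3 libraries (x axis), in CPM on a log axis, with exact Poisson 95% intervals; the open circle for Car9 in Otor-high cells on day 25 marks 0 UMIs and is drawn at the level of 3 UMIs. Ldha separates Otor-high cells (1097 CPM on day 5) from Epcam-positive (277 CPM) and Pou4f3-positive cells (158 CPM), and Ndrg1 reaches a like level on day 5 in Otor-high cells and on day 25 in Epcam-positive cells.

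Many of the steps are served by families of related genes, and the share of each family's UMIs taken by 1 member needs no scaling between libraries. Counts came from transcript 3′ ends, so transcript length does not enter, but capture may differ between genes and only changes of a share are compared. Ldhb took 42.6% of the Ldha and Ldhb UMIs of Pou4f3-positive cells in expansion, 83.4% on day 5 and 85.4% on day 25. In Epcam-positive cells it took 32.5%, 46.3% and 56.3%, and in Otor-high cells 22.1%, 8.05% and 16.0%. Apart from the step from 83.4% to 85.4%, these shares had exact Clopper-Pearson 95% intervals narrower than the differences named. Those of the first pair were 40.2 to 45.1% and 82.3 to 84.5%. The balance thus went towards Ldhb in both epithelial classes and towards Ldha in Otor-high cells on day 5.

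Hexokinase changed in the same direction everywhere. Hk1 took 10.6%, 43.1% and 47.6% of Hk1 and Hk2 UMIs in Epcam-positive cells, 18.1%, 76.3% and 87.3% in Pou4f3-positive cells and 21.5%, 38.4% and 36.1% in Otor-high cells. Eno2 took 0.246%, 7.54% and 31.7% of enolase UMIs in Pou4f3-positive cells but only 5.08% and 5.36% in Epcam-positive and Otor-high cells of day 25. Pfkp took 31.0%, 33.4% and 47.0% of phosphofructokinase UMIs in Pou4f3-positive cells and 6.77%, 4.74% and 13.2% in Epcam-positive cells. The Bnip3 share of Bnip3 and Bnip3l was lowest on day 5 in each class, as in Epcam-positive cells at 41.2%, 16.6% and 29.3%. Car9 took 99.1% of Car9 and Car12 UMIs of Epcam-positive cells in expansion, 8.00% on day 5 and 2.77% on day 25.

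**Figure D4:**
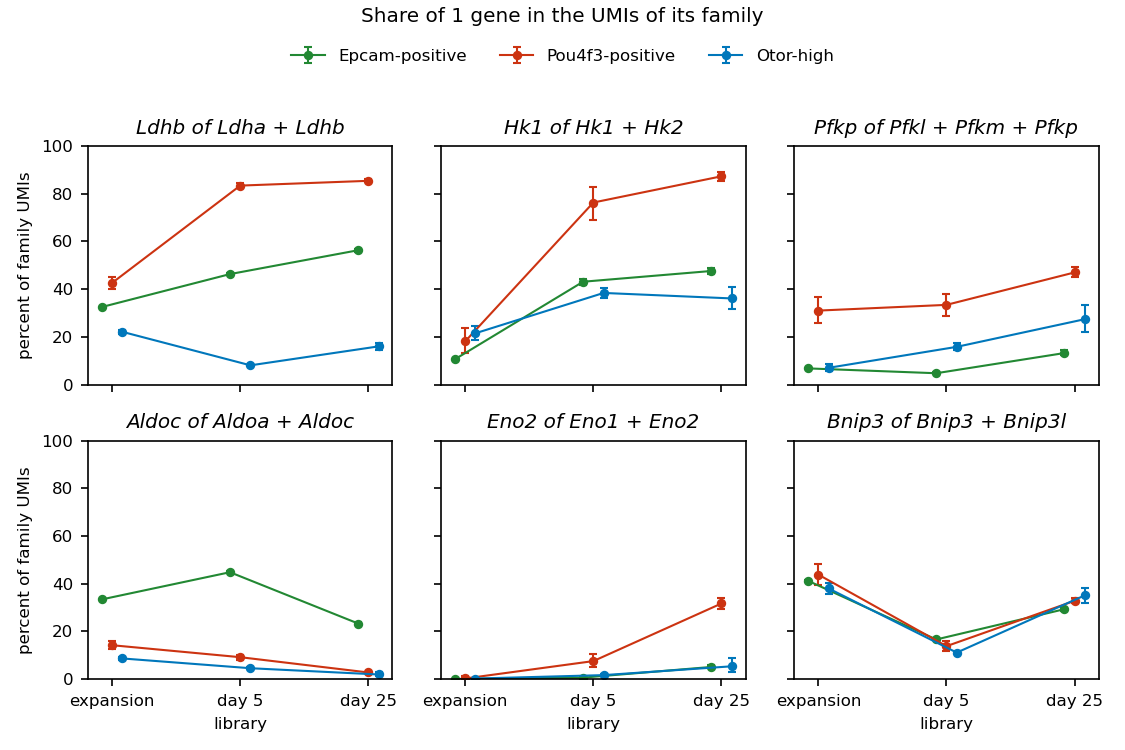
Percent of a family's summed UMIs taken by the gene named in each panel title, in Epcam-positive (green), Pou4f3-positive (red) and Otor-high (blue) cells of the 3 libraries (x axis); bars are exact Clopper-Pearson 95% intervals. Ldhb is at 85.4% in Pou4f3-positive cells on day 25 and at 8.05% in Otor-high cells on day 5, and Hk1 is above its expansion share in every class on days 5 and 25.

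Many members also varied together among Epcam-positive cells of expansion. Car9 is known as a sharp reporter of low oxygen, and 2260 of the 16688 Epcam-positive cells of expansion held a Car9 UMI. Those cells were deeper, with a median of 11978 UMIs against 6598. Car9 itself chose the cells and is no result here. Of 5533 genes tested, 12 including Car9 were called higher in cells with a Car9 UMI (0.217%) and 0 lower, and the 12 held 5 further members of 24 tested. These were Mgarp (31.8 against 10.0 CPM), Pfkp (23.3 against 7.67 CPM), Slc16a3 (72.5 against 26.5 CPM), Bnip3 (246 against 98.9 CPM) and Pgk1 (1775 against 766 CPM). Mgarp and Pfkp passed the 20 CPM bound only in the cells with a Car9 UMI, so they could only be called higher. The members were also chosen with earlier results of these data known, so the count of 5 is a description and was not tested. Pgk1 was 2.32-fold higher (2.29 to 2.34) and Bnip3 2.49-fold (2.42 to 2.56), and the promoters printed above for Pgk1, Bnip3 and Pfkp belong to this set. The other called genes were Cox4i2, Cox7a1, Plod1, Mt1, H2-K1 and Pgm2, of which Cox4i2 is a respiratory subunit that replaces its partner at low oxygen and Pgm2 feeds sugar phosphates towards glycolysis. Below the 20 CPM bound, Ndrg1 was 4.44-fold higher (3.95 to 4.99) and P4ha2 2.80-fold (2.46 to 3.19). Ldhb was lower in cells with a Car9 UMI, at 298 against 372 CPM. With every cell thinned to 2000 UMIs, 655 cells held a Car9 UMI and 8 members were called higher, with a log2 ratio of 1.03 for Pgk1 and 1.32 for Bnip3. Those 655 cells held only 1310000 UMIs, and no share over all genes is given for the thinned setting. The rise from 5 to 8 members is therefore not read as a result.

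**Figure D5:**
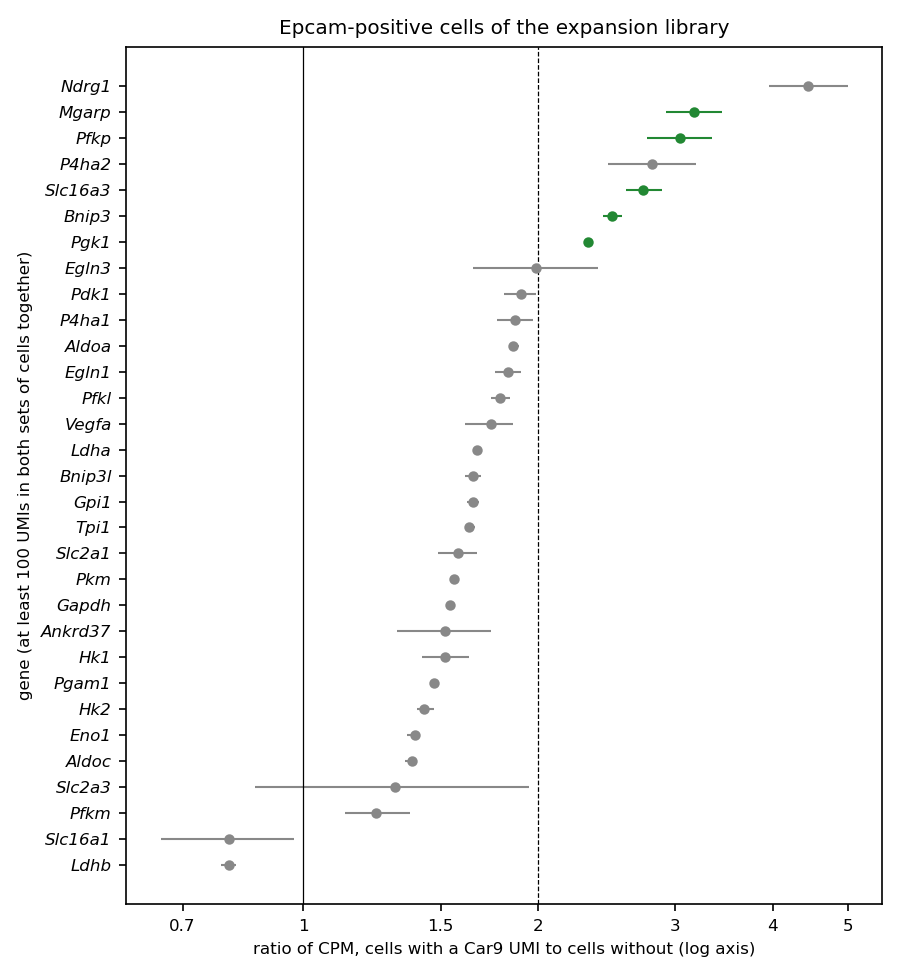
Ratio of CPM between Epcam-positive expansion cells with a Car9 UMI (2260 cells) and without (14428 cells) for each member with at least 100 UMIs, on a log axis, with exact 95% intervals from counting; green marks calls, the solid line is a ratio of 1 and the dashed line 2. Ndrg1, Mgarp and Pfkp lie furthest to the right, and Ldhb and Slc16a1 lie left of 1.

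Cells with a Car9 UMI were fewer after expansion. Thinned to 2000 UMIs, they were 4.04% of Epcam-positive cells in expansion (3.74 to 4.35%), 0.690% on day 5 and 0.308% on day 25, against 0.483%, 0.0501% and 0% of Otor-high cells; unthinned the Epcam-positive shares were 13.5%, 4.22% and 2.05%. The thinned Epcam-positive shares of days 5 and 25 rested on 45 and 11 cells with a Car9 UMI. On day 5 the unthinned split set 287 cells against 6517, with medians of 26116 and 6495 UMIs. It called 2 of 21 members higher and 0 lower (1.66% and 1.15% of all genes). On day 25 the split set 77 cells against 3671, with medians of 16407 and 8940 UMIs, and called 3 of 24 higher and 0 lower (2.51% and 1.21%). The part of depth in these calls was not tested.

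Correlation across cells gave a like picture in expansion, though not for every member. Over 16226 Epcam-positive cells of expansion with at least 2000 UMIs, the 105 pairs among the 15 members with at least 100 CPM had a median Pearson r of 0.29, against 0.02 over all pairs of 1255 such genes. The strongest pair was Pgk1 and Aldoa at 0.58, while pairs with Ldhb lay between -0.06 and 0.07 and pairs with Hk2 between 0.02 and 0.14. The median of member pairs was 0.14 on day 5 (11 members, 6518 cells) and 0.10 on day 25 (12 members, 3575 cells), against 0.03 and 0.04 over all pairs. The 95th percentile over all pairs was 0.10 in expansion, 0.13 on day 5 and 0.19 on day 25. The member median was thus just above it on day 5 and below it on day 25. The pairs were not matched on level. The cells of a library share its depth and free RNA, and these values are given as description only.

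Neighbouring pathways from lists of their own were counted over all cells, day 5 against expansion. In this pair 15.3% of all genes were called higher and 7.81% lower, and TMM scaling moved that split towards lower, as given above. The lists are short, and their counts were not tested against those shares. Of 17 tested citrate cycle genes 0 were called in either direction, and of 23 respiratory chain genes 1 was called higher (Ndufa1) and 0 lower. Of 6 pentose phosphate genes 1 was lower (Tkt, 91.9 against 201 CPM). Serine synthesis, which branches off glycolysis, had 3 of 4 tested genes lower, among them Psat1 (40.4 against 129 CPM) and Phgdh (87.0 against 207 CPM). In Pou4f3-positive cells Phgdh was instead 2.08-fold higher on day 5, at 239 against 115 CPM. Among 15 tested further HIF targets 3 were higher, led by the collagen cross-linker Lox (33.2 against 0.578 CPM), and 3 lower, with Tfrc and Fam162a leading, and with TMM scaling 1 was higher and 5 lower. Of 3 tested further glycolysis genes and 2 gluconeogenesis genes 0 were called. Of 7 pyruvate entry genes 1 was called higher, the pyruvate carrier subunit Mpc2 at 324 against 120.4 CPM.

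Of 10 listed HIF pathway regulators 4 were tested on day 5 against expansion and 2 were higher, Epas1 (HIF-2 alpha) and Cited2, while 5 of 7 were higher and 0 lower on day 25. Over all genes 15.3% and 33.5% were called higher in these pairs, and with TMM scaling the regulators called higher were 1 and 2. Epas1 stood at 3.51, 23.2 and 36.9 CPM over all cells and at 1.79, 58.5 and 67.8 CPM in Otor-high cells. On day 25 it stood at 46.7 CPM in Epcam-positive and 3.55 CPM in Pou4f3-positive cells. Pdk4, a kinase that blocks pyruvate entry during fasting, stood at 1.95, 0.837 and 46.7 CPM, and on day 25 at 67.5 CPM in Epcam-positive against 1.12 CPM in Otor-high cells. Bhlhe40, a hypoxia-induced repressor, stood at 7.18, 10.6 and 79.0 CPM. Mif, an abundant listed HIF target, went the way of the glycolytic enzymes, at 1663, 795 and 328 CPM.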

How the data were processed

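Counts of UMIs per gene and barcode were deposited as 3 matrices, which the authors produced in Cell Ranger; per the file headers the day 25 matrix came from version 3.1.0 and the others from 3.0.1. GRCm38 and hg38 are both listed in the submitters' processing notes, and the annotation release is not given in the sources used here. Barcodes with under 500 genes (935, 550 and 120) or over 20% mitochondrial UMIs (a further 167, 52 and 229) were left out. Doublets were kept, since the rule for kept cells does not name them, and removed in an alternative: Scrublet in scanpy 1.11.5 called 6.3%, 4.69% and 2.44% of kept cells against an expected 22.4%, 11.08% and 5.01%, so fewer were marked than expected. Median depth was 4935, 5962 and 8585 UMIs per cell.

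Otor-high cells held at least 5 Otor UMIs at 2000 CPM or more and under 2 UMIs of Epcam and Pou4f3; 199, 502 and 38 cells with high Otor and either marker entered no class. UMIs were summed and scaled to CPM over all genes. A call needed 20 CPM in either set of cells and a 2-fold ratio of CPM + 1, a scale that understates ratios of low genes; mitochondrial genes were left out. Ratios have exact conditional binomial intervals. With 1 library a group no p-value was computed. The counting was checked on simulated data. Values in every library are given for members called over all or Epcam-positive cells, others by range or after their values were seen; of other lists the 2 leading called genes in each direction were open to naming. The members and lists were chosen with earlier results of these data known. Alternatives were TMM scaling (edgeR 4.0.16), median of ratios, scaling without ribosomal and mitochondrial genes, a pseudocount of 5, a level of 1 CPM, and changed cell filters and marker thresholds. Positions are from the GENCODE annotation of GRCm38.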

Additional observations from a re-analysis of the deposited data

Results flagged for a closer look

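Between expansion and day 5, Ldha had log2 ratios of CPM + 1 of -1.42 in Epcam-positive and -1.77 in Pou4f3-positive cells and of 0.64 in Otor-high cells, so the class differences have opposite signs. Ldhb over the same pair had -1.05 in Otor-high and 0.98 in Pou4f3-positive cells. Between expansion and day 25, Hk2 had -1.41 in Epcam-positive and -3.47 in Pou4f3-positive cells against 0.68 in Otor-high cells, where the median of all tested genes was 0.69. With 1 library a group none of these differences between classes was tested. Each is listed because the gene was called in 1 class and lay at least 1.5-fold to the other side in another.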

How the results depend on the processing

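Of 181 totals of called members (higher plus lower) under the alternatives, 163 stayed within 1.5 times the total reported and 18 did not. Counted by direction, 45 of 362 moved further than that, among them with TMM the lower calls of day 25 against day 5 over all cells (0 to 4) and those of Otor-high cells on day 5 (8 to 13) and day 25 (6 to 12) against expansion. Of 1863 log2 ratios of members called at 2-fold, 650 moved beyond their counting interval, 121 of 195 with TMM; 0 changed sign, which shifts of this size could hardly bring about. With genes from 1 CPM, called members on day 25 against day 5 went from 5 to 10 over all cells, to 11 in Epcam-positive and to 11 in Otor-high cells, and on day 25 against expansion in Otor-high cells from 13 to 20. Otor-high against Epcam-positive cells went from 5 to 8 in expansion and from 8 to 13 on day 25 in that setting. In Otor-high cells TMM, median of ratios and a pseudocount of 5 each left 3 of the 5 calls on day 25 against day 5. Pou4f3-positive against Epcam-positive cells of expansion went from 2 calls to 4 with TMM, 4 without ribosomal and mitochondrial genes and 4 from 1 CPM, to 1 with a stricter cell filter, 7 without Mki67 or Top2a cells and 1 with a marker threshold of 1 UMI. On day 5 that threshold took the same comparison from 8 calls to 1. Without Mki67 or Top2a cells, Otor-high against Epcam-positive cells of expansion went from 5 to 8. Thinning took the Car9 comparison from 5 to 8. With called doublets left out 10 of 132 family shares moved beyond their interval. The causes were not tested, except that the 1 CPM bound tests more genes. The 169 Pou4f3-positive cells of expansion limit that class by depth. No paired analysis was possible because each group held 1 library and no test was run.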
